A study of Pan troglodytes with 6 samples.

Results

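The genes described here are 8 markers of cerebellar granule cells, namely the transcription factors ZIC1, ZIC2 and ZIC4, the giant cadherin FAT2, the secreted synaptic organisers CBLN1 and CBLN3, the secreted glycoprotein RELN and the vesicle priming factor CADPS2. They were chosen by name, with earlier results of these data known. A gene was taken as measured where the platform annotation gave a feature that gene symbol and no other. By that rule 7 of the 8 were measured, each by 1 feature, among 12584 genes named in the same way and 15143 features in all. CBLN3 was not measured by it, because its symbol shares a feature with another gene, and it was not analysed here. The values come from Affymetrix Human Exon 1.0 ST arrays, on which RNA of chimpanzees (Pan troglodytes) was hybridised to probes designed for human genes. There were 3 arrays of cerebellum and 3 of liver. In each tissue the labels give replicate 1 as a female of 27 years, replicate 2 as a male of 37 years and replicate 3 as a male of 30 years. The labels do not say whether the cerebellum and the liver with the same number came from 1 animal, and they name no treatment or disease. All samples are whole-tissue RNA depleted of ribosomal RNA.

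Granule cells are the small excitatory neurons that fill the granular layer of the cerebellum, and they are the most numerous neurons of the brain. They receive mossy fibres and send parallel fibres to the dendrites of Purkinje cells. ZIC zinc finger factors act in granule cell precursors and stay on in mature granule cells. FAT2 lies on parallel fibres, cerebellins are released from them and help to form and keep the synapses onto Purkinje cells, reelin guides the placing of migrating neurons, and CADPS2 primes dense-core vesicles, which carry neuropeptides and neurotrophins.

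Each value is a normalized intensity on a linear scale, already given the same distribution on all 6 arrays before deposit, with a median of 96.3 and a highest value of 6527. The tissues matched their labels by defining markers. The 5 measured hepatocyte markers summed to 16661 to 20638 in liver and 55.0 to 105 in cerebellum. The granule cell receptor subunit GABRA6 was at 513, 1040 and 575 in cerebellum and at 57.8, 32.5 and 49.5 in liver. In bulk tissue, fewer cells of a type cannot be told apart from less RNA of the gene per cell. Levels of different genes are not compared, since each feature has its own probes, which may match the chimpanzee transcript better or worse.

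All 7 measured genes were higher in cerebellum (limma, adjusted p from 1.63e-07 to 5.78e-05), against 26.7% of all features that passed in that direction, 23.9% that passed toward liver and 50.6% in all. All 7 also passed with a difference of at least 2-fold toward cerebellum, as did 17.2% of features. In all 7 the lowest cerebellum value lay above the highest liver value, which held for 31.0% of features. The differences ran from 2.09 to 5.77 with a median of 5.02, where the median of all features was 0.04. These and all later differences are cerebellum minus liver on the scale log2(intensity + 16.8), whose pseudocount was set at the 10th percentile of the table and which understates the change of genes that are dim in one tissue. The adjusted p values are those of limma with Benjamini-Hochberg adjustment over all features, 0.05 being the threshold. With 3 arrays a tissue, the smallest two-sided p of an exact permutation test is 0.1, so none is given.

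**Figure D1:**
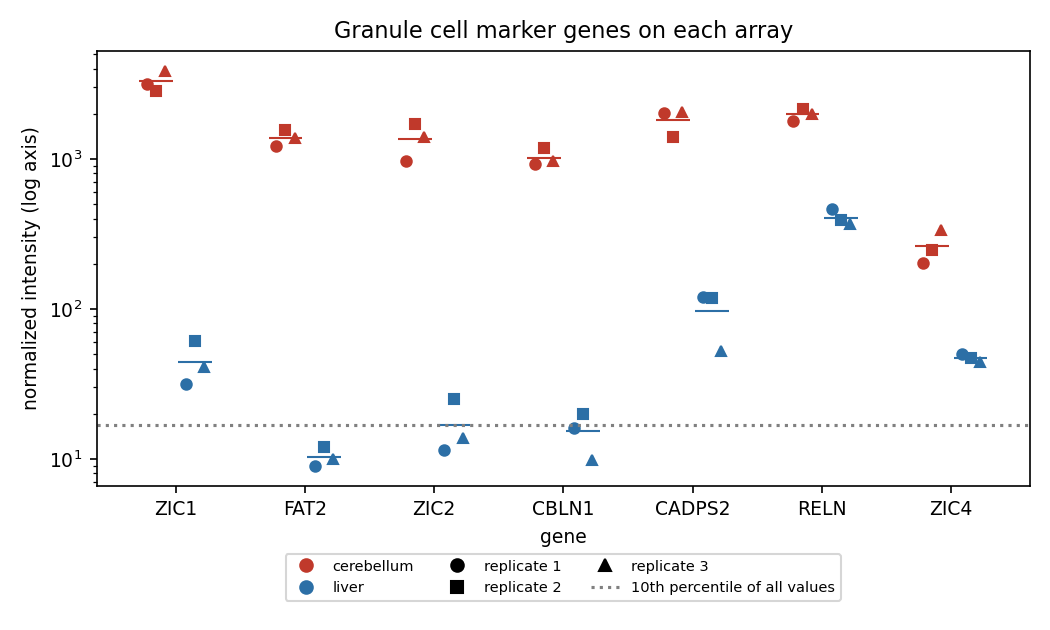
Normalized intensity (log axis) of the 7 measured genes on each of the 3 cerebellum and 3 liver arrays, with a line at each tissue mean and a dotted line at the 10th percentile of all values, 16.8. No gene has tissues that overlap, FAT2 lies below the dotted line on all 3 liver arrays, and RELN has liver values of 367 to 463.

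ZIC1, which with its relatives keeps granule cell precursors from differentiating early, had intensities of 3151, 2852 and 3882 in cerebellum replicates 1, 2 and 3 and of 31.4, 60.7 and 41.2 in the livers. Its cerebellum values were within 1.36-fold of each other, and the lowest of them was 47.0 times the highest liver value. The means were 3295 ± 530 and 44.4 ± 14.9 (SD, n = 3 per tissue), giving a log2 difference of 5.77 ± 0.22 (standard error, as for the other 6 genes below; limma, adjusted p = 3.50e-07). ZIC2, a factor also needed for early forebrain development, was at 963, 1719 and 1407 in cerebellum and at 11.4, 25.04 and 13.8 in liver. Its cerebellum values spread more, by 1.78-fold, with replicate 1 the lowest, and 2 of its 3 liver values lay under the pseudocount. ZIC2 thus differed by 5.35 ± 0.26 on the log2 scale (limma, adjusted p = 9.33e-07).

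ZIC4 had the smallest log2 difference of the 7. This gene is the direct neighbour of ZIC1 in the chimpanzee RefSeq annotation (assembly NHGRI_mPanTro3-v2.0_pri), with 0 genes between them. Its cerebellum values were 201, 246 and 336 and its liver values 50.1, 47.2 and 44.1. The liver arrays lay within 1.14-fold of each other, whereas the cerebellum arrays spread over 1.67-fold with replicate 3 highest. ZIC4 differed by 2.09 ± 0.21 on the log2 scale (limma, adjusted p = 5.78e-05), and the lowest cerebellum value was 4.01 times the highest liver value. For RELN that ratio was smaller, 3.87, so the last place of ZIC4 is that of the scale with the pseudocount. ZIC1 and ZIC4 were both highest in cerebellum replicate 3, by 0.37 and 0.56 on the log2 scale above the mean of the other 2, whereas ZIC2 was highest in replicate 2.

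Of 8 relatives of these factors with the same kind of zinc fingers, 6 were measured. Of these 2 were higher in cerebellum and 1 was higher in liver, with a median difference of 0.06. In these directions 26.7% and 23.9% of all features passed. ZIC5, which lies beside ZIC2 with 0 genes between them, was at 1006, 1068 and 1012 in cerebellum and 23.5, 22.7 and 10.9 in liver, a log2 difference of 4.89 (limma, adjusted p = 3.91e-07). Its cerebellum arrays were close to each other, unlike those of ZIC2. GLI3, a mediator of Hedgehog signalling, differed by 0.69 (limma, adjusted p = 0.0240). It no longer passed when any cerebellum array or liver replicate 1 or 2 was left out (adjusted p from 0.0586 to 0.0704), and alignment of the arrays on general genes gave 1.15. GLIS3, a factor known from endocrine and kidney development, was at 27.0, 32.2 and 22.8 in cerebellum and 49.8, 80.8 and 217 in liver, a difference of -1.39 (limma, adjusted p = 0.0202). GLIS3 no longer passed when cerebellum replicate 1 or 3 was left out (adjusted p = 0.0551 and 0.0660) or under the alignment on general genes (adjusted p = 0.0552), and leaving out liver replicate 3 gave a difference of -0.87 (adjusted p = 0.0129).

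FAT2 was at 1212, 1568 and 1380 in cerebellum and at 8.996, 12.02 and 9.97 in liver. It was the one gene of the 7 with every liver value under the pseudocount, so its difference depends on that choice more than the others. The means were 1387 ± 178 and 10.3 ± 1.54 (SD, n = 3 per tissue), and FAT2 differed by 5.69 ± 0.17 on the log2 scale (limma, adjusted p = 1.63e-07), the smallest adjusted p among the 7. Only 16 of the 15143 features had a larger difference toward cerebellum, and for ZIC1 that number was 12.

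Relatives and partners of FAT2 lay on both sides of 0. Of 6 FAT and Dachsous cadherins with the Four-jointed homologue FJX1 among them, 5 were measured. Of these 0 were higher in cerebellum and 1 was higher in liver (limma), with a median difference of -0.26. In these directions 26.7% and 23.9% of all features passed. Toward cerebellum 2 of the 5, FAT1 and DCHS2, had an unadjusted p under 0.05, and with trended robust moderation 1 passed. DCHS2, a Dachsous cadherin named after its values were seen, differed by 0.44 (limma, adjusted p = 0.0638), or by 0.56 without cerebellum replicate 2 (adjusted p = 0.0337). FAT4, a binding partner of Dachsous in planar cell polarity, was at 24.1, 34.8 and 17.6 in cerebellum and 93.8, 80.3 and 118 in liver, a log2 difference of -1.44 (limma, adjusted p = 6.14e-04). FAT1, named here after its values were seen, was at 596, 1212 and 814 in cerebellum and at 131, 139 and 836 in liver, so that 1 liver array lay within the cerebellum range (difference 1.66, limma adjusted p = 0.0546). Without liver replicate 3 the difference of FAT1 was 2.49 (adjusted p = 2.96e-04), and it passed under 5 of the 13 alternatives.

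CBLN1, the cerebellin that granule cells secrete onto Purkinje cell spines, was at 920, 1179 and 963 in cerebellum and at 16.2, 19.9 and 9.78 in liver. Its cerebellum arrays lay within 1.28-fold of each other, and 2 of its 3 liver values were under the pseudocount. The means were 1021 ± 139 and 15.3 ± 5.12 (SD, n = 3 per tissue), and CBLN1 differed by 5.02 ± 0.19 on the log2 scale (limma, adjusted p = 3.41e-07).

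Of 13 other genes of cerebellin synapses, 8 were measured, and 5 of these were higher in cerebellum and 1 in liver. Their median difference was 1.22, and 26.7% and 23.9% of all features passed in these directions. The neurexin NRXN3, a presynaptic receptor for cerebellins, was at 1353, 1345 and 1417 in cerebellum and 83.6, 42.5 and 30.9 in liver, a log2 difference of 4.40 (limma, adjusted p = 3.46e-06). ADGRB3, the Purkinje cell receptor for the related protein C1QL1, differed by 5.22 (limma, adjusted p = 2.32e-07). C1QL1 itself, which climbing fibres supply, went the other way, at 295, 354 and 312 in cerebellum and 419, 631 and 625 in liver. Its difference of -0.75 (limma, adjusted p = 0.0152) did not stand when cerebellum replicate 1 or 3 or liver replicate 2 was left out (adjusted p from 0.0563 to 0.0577), and it was -0.30 with arrays aligned on general genes (adjusted p = 0.258). The paralogue CBLN4, named after its values were seen, was at 666, 196 and 156 in cerebellum and 124, 495 and 555 in liver. Both tissues thus held high and low arrays, and its difference of -0.23 did not pass (limma, adjusted p = 0.785).

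RELN had liver values nearest to its cerebellum values, with 1791, 2145 and 2004 in cerebellum and 463, 389 and 367 in liver. Both sets were tight, within 1.20-fold in cerebellum and 1.26-fold in liver, and the lowest cerebellum value was 3.87 times the highest liver value, the smallest such gap of the 7. The means were 1980 ± 178 and 406 ± 50.2 (SD, n = 3 per tissue), and RELN differed by 2.24 ± 0.17 on the log2 scale (limma, adjusted p = 1.31e-05). Hepatic stellate cells are also known to make reelin. The 13 measured markers of stellate cells and fibroblasts summed to 3055, 2585 and 5278 in livers 1, 2 and 3 and to 763 to 1575 in cerebellum. RELN was highest in liver 1. Of the 13 markers 4 were highest in liver 1, 2 in liver 2 and 7 in liver 3, so the list has no single order of the livers. The part of these cells in the liver level of RELN was not tested.

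The genes through which reelin acts lay on both sides of 0. Of 21 genes listed for reelin signalling, 17 were measured. Of these 7 were higher in cerebellum, 2 were higher in liver and 8 did not pass, with a median difference of 0.39. The shares of all features that passed were 26.7% toward cerebellum and 23.9% toward liver. The reelin receptor LRP8 was at 373, 277 and 343 in cerebellum and 30.2, 31.1 and 30.2 in liver, a log2 difference of 2.87 (limma, adjusted p = 3.28e-06). The other reelin receptor, VLDLR, was at 136, 119 and 140 against 15.8, 12.9 and 32.1, a difference of 2.03 (limma, adjusted p = 9.52e-05). Neither receptor had tissues that overlapped. Of the kinases, FYN, which phosphorylates the reelin adaptor DAB1, differed by 1.78 (limma, adjusted p = 3.07e-05), while SRC, which can do the same, was at 54.2 to 63.5 in cerebellum and 57.1 to 88.1 in liver and did not pass (limma, adjusted p = 0.491). Both were named after their values were seen, and DAB1 was not among the measured genes. ITGB1, the integrin beta-1 chain, was higher in liver by a difference of -1.90 (limma, adjusted p = 1.73e-04). AKT1, a kinase downstream of many receptors, differed by -0.53 (limma, adjusted p = 0.0289), a call that did not stand when cerebellum replicate 1 or 3 or liver replicate 1 or 2 was left out (adjusted p from 0.0514 to 0.1195), nor under the alignment on general genes (difference -0.08, adjusted p = 0.763). With that alignment 11 of the 17 were higher in cerebellum and 1 in liver.

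CADPS2 was at 2013, 1392 and 2062 in cerebellum and at 119, 118 and 52.1 in liver. Cerebellum replicate 2 and liver replicate 3 were low, at -0.54 and -0.97 on the log2 scale against the mean of the remaining arrays of their tissue, the second being the widest such gap of the 7 in either tissue. The means were 1823 ± 373 and 96.4 ± 38.4 (SD, n = 3 per tissue), and CADPS2 differed by 4.07 ± 0.30 on the log2 scale (limma, adjusted p = 9.62e-06). Without liver replicate 3 the difference was 3.74. 

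Of 19 genes of dense-core vesicles, their priming, their cargo and neurotrophin receptors, 13 were measured. Of these 11 were higher in cerebellum, 0 were higher in liver and 2 did not pass (limma), with a median difference of 3.17. Among all features 26.7% passed toward cerebellum and 23.9% toward liver. Toward liver the count was 0 also at an unadjusted p under 0.05 and with trended robust moderation, and 1 without liver replicate 3. SNAP25, a membrane fusion protein of the SNARE complex, differed by 6.70 (limma, adjusted p = 1.51e-07), and CHGB, a granin packed in dense-core vesicles, was at 1078, 1057 and 1396 against 13.7, 13.3 and 7.55, a difference of 5.40 (limma, adjusted p = 2.42e-07). CADPS, the paralogue of CADPS2 and named after its values were seen, was at 561, 643 and 596 in cerebellum and at 6.03, 7.35 and 8.08 in liver, a difference of 4.69 (limma, adjusted p = 2.25e-07). Its cerebellum arrays were within a narrow range in which replicate 2 was highest, the replicate in which CADPS2 was lowest. BDNF, a neurotrophin whose release CADPS2 promotes, also named after its values were seen, was at 101, 82.9 and 194 against 9.09, 5.22 and 8.95. Its difference was 2.47 (limma, adjusted p = 1.22e-04), and its replicate 3 stood above the other 2. The granin CHGA and the secreted peptide precursor VGF, named as the 2 that did not pass, had differences of -0.45 and 0.17 (limma, adjusted p = 0.297 and 0.575). Without liver replicate 3 that of CHGA was -0.83 and passed toward liver (adjusted p = 0.0224), and with arrays aligned on general genes it was 0.0028.

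**Figure D2:**
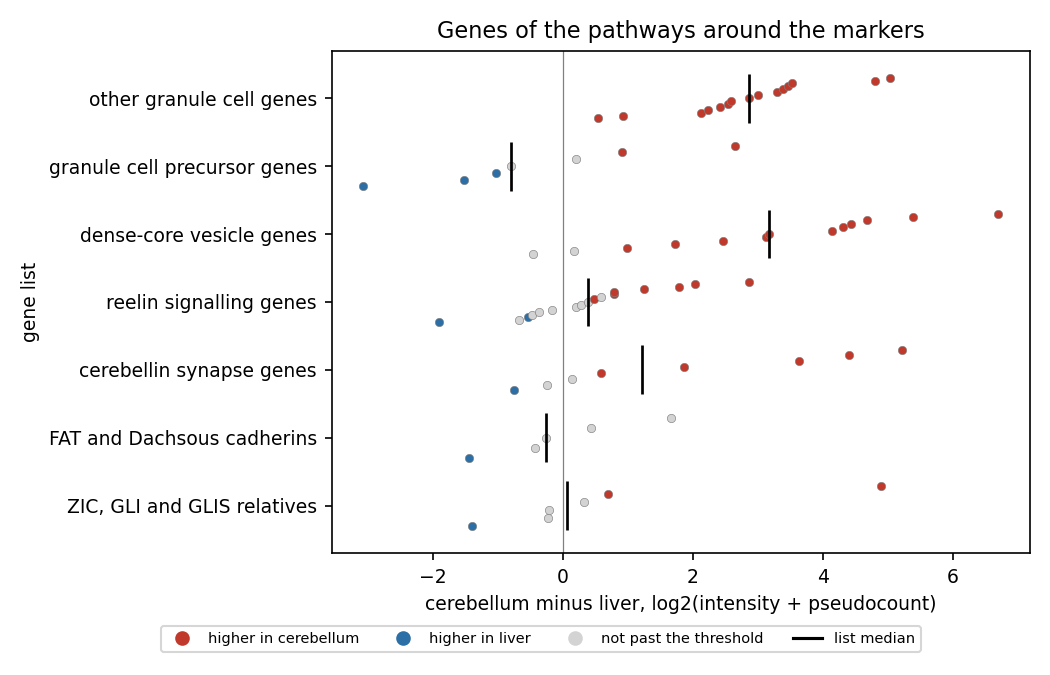
Log2 difference, cerebellum minus liver, of each measured gene in the 7 lists of related genes, with a line at each list's median and colours for limma's calls (adjusted p under 0.05). The dense-core vesicle and other granule cell lists lie mostly to the right, with medians of 3.17 and 2.86, and the ZIC relatives, FAT cadherins and precursor genes lie on both sides of 0.

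The order of the 7 by log2 difference was ZIC1, FAT2, ZIC2, CBLN1, CADPS2, RELN and ZIC4. The 95% intervals of limma ran from 5.26 to 6.29 for ZIC1, from 5.30 to 6.08 for FAT2, from 4.76 to 5.93 for ZIC2 and from 4.58 to 5.46 for CBLN1, so each of these overlaps its neighbour in the order. CADPS2, with an interval from 3.38 to 4.75, overlaps CBLN1 and lies above RELN, with 1.84 to 2.64, and ZIC4, with 1.62 to 2.57. The step between CADPS2 and RELN was the one step between neighbours at which intervals did not overlap. These intervals also carry the effect of the pseudocount, and at a lower pseudocount of 10.2, the 5th percentile, FAT2 came before ZIC1, as it did without cerebellum replicate 3 or without liver replicate 1. With the arrays aligned on 85 genes of ribosomal proteins, proteasome and respiratory chain, all differences are larger by the same amount, the median of all features is 0.49, and the 7 ran from 2.55 for ZIC4 to 6.23 for ZIC1. The share of called features that were higher in cerebellum was then 74.0% in place of 52.8%.

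Other genes known from granule cells were higher in cerebellum as well. Of 21 listed, 15 were measured, and all 15 passed toward cerebellum (limma) without overlap between tissues, with a median difference of 2.86. Among all features 26.7% passed in that direction, and 31.0% had every cerebellum value above every liver value. The potassium channel KCND2, which carries a fast inactivating current in granule cells, was at 907, 1063 and 869 against 15.6, 11.1 and 10.6, a difference of 5.04 (limma, adjusted p = 2.25e-07). ETV1, a factor of granule cell maturation, was at 2410, 1290 and 2116 against 84.6, 32.4 and 45.4, a difference of 4.81 (limma, adjusted p = 5.82e-06). The smallest differences of the list were those of the nuclear factors NFIA and NFIB, 0.93 and 0.55, which were named after their values were seen and which many tissues express. The call of NFIB (limma, adjusted p = 0.0352) did not stand when any cerebellum array or liver replicate 1 or 2 was left out (adjusted p from 0.0529 to 0.119), which left 14 of the 15. CBLN1, CADPS2, RELN and ZIC4 lay within the range of this list, and ZIC1, FAT2 and ZIC2 lay above its highest member. Markers of other cerebellar cells mostly passed toward cerebellum too. Those passing were 9 of 10 measured for Purkinje cells and 4 of 7 for GABAergic interneurons. For astrocytes and Bergmann glia they were 5 of 6, and for oligodendrocytes 6 of 7. The median differences of these lists were 3.08, 1.05, 2.18 and 1.77. Comparing cerebellum with liver thus does not set granule cell genes apart from genes of other cerebellar cells.

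**Figure D3:**
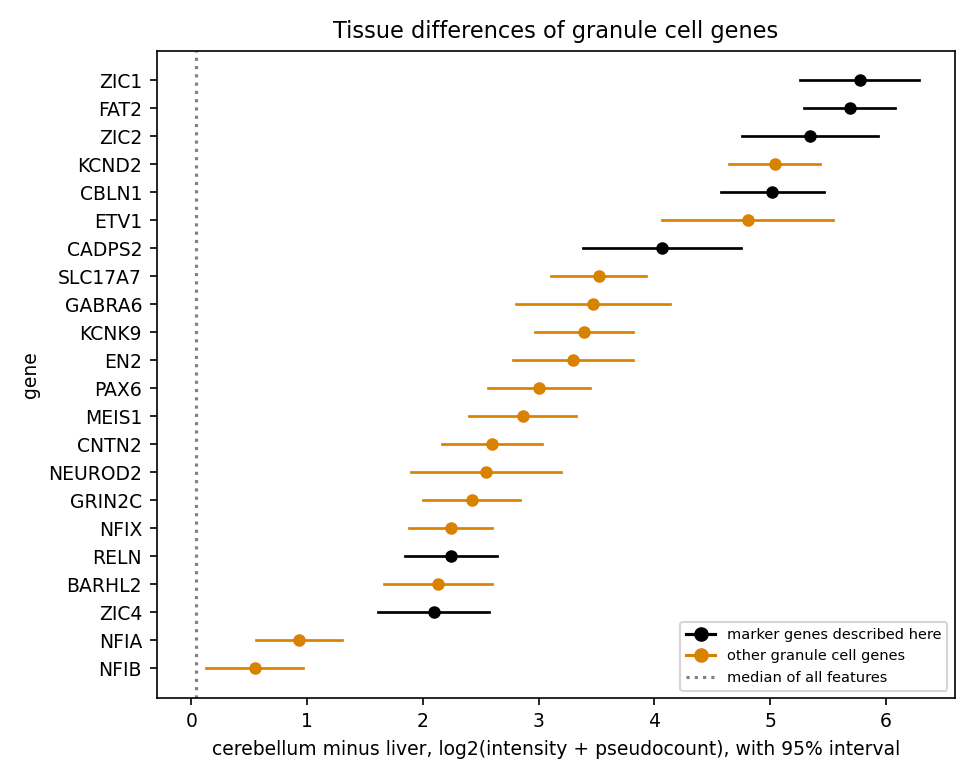
Log2 difference, cerebellum minus liver, with limma's 95% interval, of the 7 marker genes (black) and 15 other granule cell genes (orange), with a dotted line at the median of all features, 0.04. ZIC1, FAT2 and ZIC2 stand above KCND2 at 5.04, and RELN and ZIC4 stand near 2 with BARHL2 and NFIX.

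Genes of dividing granule cell precursors lay on both sides. Of 8 listed, 7 were measured, 2 were higher in cerebellum and 3 in liver, with a median difference of -0.79, where 26.7% and 23.9% of all features passed in these directions. PTCH1, the Hedgehog receptor, was at 631, 529 and 785 in cerebellum and 60.9, 113 and 95.3 in liver, a difference of 2.66 (limma, adjusted p = 3.42e-05). CCND2, a D-type cyclin of the precursor list, differed by 0.91 (limma, adjusted p = 0.0127), or 1.36 with arrays aligned on general genes. CCND1, another D-type cyclin, was at 28.7, 41.1 and 29.7 against 193, 640 and 504, a difference of -3.07 (limma, adjusted p = 2.41e-04), and the chemokine receptor CXCR4 differed by -1.51 (limma, adjusted p = 0.00312). MKI67, a protein of cycling cells named after its values were seen, was near the low end on all 3 cerebellum arrays, at 3.65, 3.26 and -0.17. In liver it was dim too, at 4.11, 13.4 and 39.2, with 2 of these values under the pseudocount. The difference of MKI67, -0.79, did not pass (limma, adjusted p = 0.0781).

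The 7 genes did not rank the cerebellum arrays alike. Replicate 1 was lowest for 5 of them and highest for 0, replicate 2 was highest for 4 and lowest for 2, and replicate 3 was highest for 3 and lowest for 0. As the distance of an array from the mean of the remaining pair, the median of the 7 was -0.21 in replicate 1, 0.18 in replicate 2 and 0.13 in replicate 3 on the log2 scale. The median of all features was within 0.01 of 0, as the same distribution on all arrays makes likely. It therefore does not show whether the 7 stray more than other genes. ZIC2 spread most, from -0.68 in replicate 1 to 0.56 in replicate 2. CADPS2 lay at 0.25, -0.54 and 0.30, so that it was low in the replicate in which FAT2, ZIC2, CBLN1 and RELN were highest. With 3 arrays and deviations that balance to 0 within each gene, no correlation is given.

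Markers of other cerebellar cells moved between the same arrays, in part by more. In replicates 1, 2 and 3 the median deviation was -0.74, 0.69 and -0.05 for the 10 measured Purkinje cell markers, -0.71, 1.03 and -0.20 for 7 markers of GABAergic interneurons, and -0.33, 0.61 and -0.31 for 6 markers of astrocytes and Bergmann glia. For 7 oligodendrocyte markers it was 0.81, -0.26 and -0.24. The summed intensity of the Purkinje list was 4977, 8697 and 5536 in cerebellum and 599 to 770 in liver. That of the interneuron list was 731, 2144 and 1178, of the astrocyte list 4334, 6963 and 5335, and of the oligodendrocyte list 6183, 2114 and 2659. The myelin protein MBP alone gave 4297, 966 and 1481 of the oligodendrocyte sums. The summed intensity of the 15 other granule cell genes was 9337, 8997 and 8989, with median deviations of 0.01, 0.09 and -0.09. These genes differed among themselves too, since GABRA6 was highest in replicate 2 and ETV1 lowest there. In the Purkinje cell and interneuron lists, the called genes with the largest differences were PCP4 at 4.88 and GAD1, an enzyme of GABA synthesis, at 3.78. In the glial lists they were the astrocyte water channel AQP4 at 5.79 and MBP at 5.78, or 3.17 where the features of MBP were averaged. OPALIN of the oligodendrocyte list, named after its values were seen, went the other way. It was at 173, 150 and 146 in cerebellum and 197, 251 and 304 in liver, a difference of -0.61 (limma, adjusted p = 0.0309). The part of the make-up of each tissue piece in the spread of the 7 genes was not tested.

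**Figure D4:**
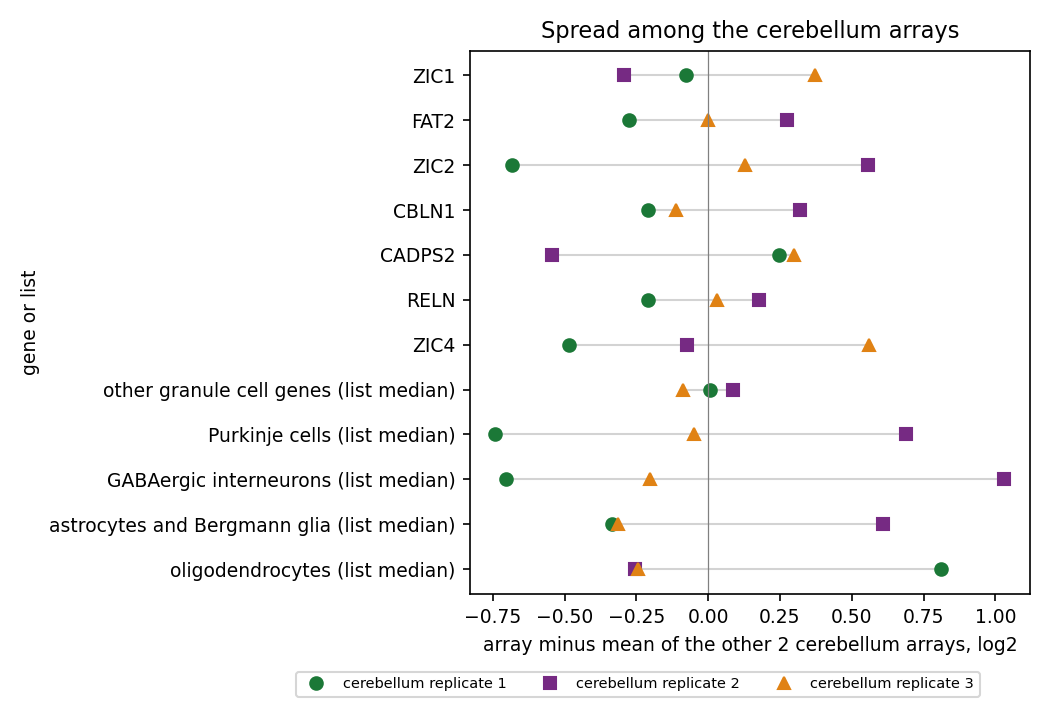
Distance of each cerebellum array from the mean of the remaining pair (log2), for the 7 marker genes and for the medians of 5 lists of cell type genes. Replicate 1 is lowest for 5 of the 7 genes, CADPS2 is lowest in replicate 2, and the interneuron list ranges from -0.71 to 1.03 while the list of other granule cell genes stays between -0.09 and 0.09.

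In liver, no gene of the 7 was highest in replicate 3, 4 were lowest there and 4 were highest in replicate 2. The genes high in liver 2 were ZIC1, FAT2, ZIC2 and CBLN1, of which FAT2, ZIC2 and CBLN1 had liver values under the pseudocount, and those high in liver 1 were CADPS2, RELN and ZIC4. Of other cells that could carry these genes, the 4 measured meningeal markers summed to 269 to 391 in cerebellum and 233 to 503 in liver, and the 6 of unipolar brush and Golgi cells to 644 to 760 and 188 to 296. The 5 choroid plexus markers summed to 226 to 255 and 157 to 171. This sum hides markers that went opposite ways. In cerebellum AQP1 was at 34.5, 169 and 32.9 and OTX2 at 131, 27.3 and 97.8. OTX2 was higher in cerebellum by 1.61 (limma, adjusted p = 0.0116), AQP1 did not pass, and KL differed by -1.16 toward liver (limma, adjusted p = 0.00246). Meninges also express ZIC genes. Most of the meningeal sum came from FOXD1, named after its values were seen. It was at 292, 219 and 340 in cerebellum and 454, 301 and 216 in liver. FOXD1 did not pass (limma, adjusted p = 0.702), and the sum mainly follows this 1 gene. The retinoid binding protein CRABP2, the called gene of the meningeal list, was at 7.20, 10.7 and 15.1 in cerebellum and -0.82, 5.55 and 2.13 in liver, under the pseudocount on every array, with a difference of 0.52 (limma, adjusted p = 0.0491). It no longer passed when any cerebellum array or liver replicate 1 or 3 was left out (adjusted p from 0.0558 to 0.184).

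The genes most like each of the 7 in pattern were found by the root-mean-square distance of log2 values over the 6 arrays, each gene centred on its own mean. This distance is ruled by the size of the tissue difference and describes these arrays only. FAT2 was closest to GABRB2, a subunit of the GABA-A receptor, at a distance of 0.088, and GABRB2 was at 1278, 1694 and 1310 in cerebellum and 6.47, 12.5 and 9.46 in liver. Both were highest in replicate 2 of each tissue. CBLN1 was closest to DNM1, the dynamin of synaptic vesicle retrieval, at 0.11, and to SYT1, a calcium sensor of transmitter release, at 0.12. ZIC1 was closest to the neuronal enolase ENO2 at 0.19 and the adhesion molecule CHL1 at 0.23, and ENO2 was also the second closest to FAT2 at 0.13. ZIC2 was closest to the desaturase SCD5 at 0.16 and the synaptotagmin SYT4 at 0.21.

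For CADPS2 the closest genes were ATP8A2, a lipid flippase of neurons, at 0.20, and TMEM266, a voltage sensor protein known from granule cells, at 0.24. ATP8A2 was at 777, 602 and 803 in cerebellum and 26.8, 25.7 and 14.3 in liver, with the same low cerebellum replicate 2 and low liver replicate 3 as CADPS2. RELN was closest to PDZD4 and RNF175 at 0.075 and 0.090, and ZIC4 to REEP1, which shapes the endoplasmic reticulum, and CCDC181 at 0.13 and 0.14. Among the 7 themselves RELN and ZIC4 were the closest pair at 0.20, followed by ZIC1 and FAT2 at 0.25, while ZIC1 and ZIC4 were the farthest apart at 1.86.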

How the data were processed

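Total RNA was extracted with TRIzol, reduced in ribosomal RNA and labelled with biotin, per the labels' protocols. The submitters' processing notes name GCOS. The authors' deposited values are intensities, 1 per feature and array, and all 6 arrays hold the same 15143 values in different order, so they were quantile normalized before deposit. Values below 0, 93 per array, show that background had been subtracted. How background and probes were handled, and the genome build, is not given in the sources used here. Precision rests on few arrays.

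Values below 0 were set to 0 and transformed as log2(intensity + 16.8). Features were compared with limma 3.58.1 (lmFit, eBayes, two-sided) in R 4.3.3, without a block, and adjusted by Benjamini-Hochberg over all features. The test was tried on simulated data. P values cover the spread between 3 arrays per tissue. Genes of lists were matched by a single symbol or an older one (71 of 96 in the 7 lists), using the brightest feature.

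The members and lists were chosen with earlier results of these data known. The named genes are all members, the 2 called genes with the largest difference in each direction of each list of related genes, the largest called gene of a cell type list where used, and the 2 nearest in pattern; all other genes in the text were named after their values were seen. Alternatives were a replicate block, other pseudocounts, a filter on dim features, alignment on 85 general genes, trended robust moderation, averaged features and leaving out each array. No sequences were printed.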

Additional observations from a re-analysis of the deposited data

How the results depend on the processing

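All 7 genes passed toward cerebellum, with at least a 2-fold difference, under each of 13 alternatives. Their log2 differences ranged from 5.48 to 6.23 for ZIC1, 5.12 to 6.14 for FAT2, 4.86 to 5.80 for ZIC2, 4.53 to 5.48 for CBLN1, 3.74 to 4.52 for CADPS2, 2.17 to 2.70 for RELN and 1.89 to 2.55 for ZIC4. The highest values came from the alignment on general genes, which adds the same amount to every gene. In the fit with the replicate number as a block the 7 differences are the same by construction, all 7 passed, and the counts of related genes were 42 toward cerebellum and 8 toward liver as without it. Of single genes named, the block brought FAT1 past the threshold (limma, adjusted p = 0.0308) and took CRABP2 below it (adjusted p = 0.0608), and it changed no other call among the named genes of the lists. Deviations of same-numbered samples from their tissue means correlated over features by 0.11, 0.16 and -0.14. Those of differently numbered samples correlated by -0.25 to 0.24, so these values do not settle whether the numbers pair the samples. The main fit had no block because no label says that same-numbered samples came from 1 animal. Among the 71 related genes, the 42 calls toward cerebellum ranged from 37 to 49. The 8 toward liver were 5 with arrays aligned on general genes, and ranged from 5 to 10 when 1 array was left out. Of the other results under these alternatives, single genes and counts of single lists or of the whole table, 556 kept their direction and side of the threshold, or for counts a similar size, 24 lost a call and 28 counts moved by over 1.5 times. The liver levels of FAT2, ZIC2 and CBLN1 near 16.8 limit how large their differences can be read.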
